A study of Mus musculus with 3 samples.

Results

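The cornified envelope and barrier genes examined here are 33 listed genes that build or regulate the outermost layer of mouse epidermis. All 33 symbols were present in the deposited gene table, among 28626 symbols in all. Their UMIs, the counted RNA molecules, were followed gene by gene in 3 droplet single-cell libraries and in 5 keratinocyte states. Dermal cells of abdominal skin were profiled from C57BL/6 mice aged 8 to 12 weeks. The dpc16 library came from skin taken on gestation day 16 and the dpp42 library from skin taken on day 42 after birth, both after tamoxifen during pregnancy. The NP library was non-pregnant: tamoxifen was given for 3 days and the skin was taken 48 days later. All 3 groups carried the genotype Col1a2creERT2; R26H2B EGFP, a tamoxifen-dependent Cre under a promoter of collagen-producing cells and a nuclear EGFP reporter. Each group was 1 library, and the number of mice behind a library is not given in the sources used here. Differences between libraries therefore have no replicate check, and no p-value was computed.

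Keratinocytes are born in the basal layer, move up through the spinous and granular layers and then die as flat corneocytes. In the granular layer they make loricrin, involucrin and small proline-rich proteins, which transglutaminases cross-link under the plasma membrane into the cornified envelope. Filaggrin and its relatives bundle keratin and are later cut into small hydrophilic molecules, while lipid enzymes and transporters fill the space between corneocytes with ceramides. Corneodesmosin holds corneocytes together, and protease inhibitors such as Spink5 restrain the enzymes that release them.

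After removal of barcodes with under 200 genes or over 10% mitochondrial UMIs, 3652, 1081 and 1289 cells remained for dpc16, dpp42 and NP, with a median of 4300.5, 3252 and 3119 UMIs. The tissue was labelled as dermis, with the epidermis removed after 0.25% trypsin for 30 min, but keratinocyte-like cells made up 39.8%, 57.5% and 70.7% of the kept cells of dpc16, dpp42 and NP. These cells, 1453, 622 and 911 in number, were clustered again without the 33 genes, and the clusters were named from markers that hold none of them. The ending "-like" says that a name comes from markers only, and the naming rule was set after the data were seen. Basal-like cells numbered 103, 104 and 249 in dpc16, dpp42 and NP. Spinous-like cells numbered 190, 148 and 310, granular-like cells 15, 19 and 15, activated-like cells 190, 9 and 22, and infundibulum-like cells 153, 26 and 28. All 10 granular markers were detected in the granular-like cells of every library, at a summed 6344, 6718 and 7620.3 UMIs per 1000000 UMIs (CPM) in dpc16, dpp42 and NP, against 1594, 2692 and 2981 CPM in spinous-like cells. Granular-like cells were deep, with a median of 20532, 20919 and 14501 UMIs, and each library held 15 to 19 of them. Another 14.8%, 22.7% and 11.4% of the keratinocyte-like cells of dpc16, dpp42 and NP stayed unnamed.

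Several states were filled unevenly. Of the 103 basal-like dpc16 cells 94 came from subcluster 17, which held 2 dpp42 cells and 0 NP cells, whereas subclusters 2 and 8 held nearly all basal-like cells of dpp42 and NP. Spinous subcluster 3 held 40 dpp42 and 78 NP cells and 0 dpc16 cells. A subcluster filled by 1 library may be that library and not a kind of cell. Barcode sequences shared by kept cells numbered 6 between dpc16 and NP, 1 between dpp42 and NP and 4 between dpp42 and dpc16. Scrublet marked 4 of 6022 cells as doublets, or 0.0664%, too few for the caller to have worked, and no doublets were removed.

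Cells that should lack these abundant transcripts gave a background level, in which RNA outside cells, doublets and misassigned cells cannot be told apart. In fibroblast-like cells the 33 genes took 0.0542%, 0.116% and 0.102% of UMIs in dpc16, dpp42 and NP. Lor was at 45.5, 58.0 and 17.6 CPM in those cells and Krtdap at 36.9, 246 and 327 CPM. Levels of Lor in basal-like cells, 20.7, 43.7 and 12.5 CPM in dpc16, dpp42 and NP, lay below this level. The same holds for Lor in the spinous-like cells of dpc16 and dpp42, at 16.2 and 40.1 CPM. Such values are read as background and not as expression.

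The 33 genes lay on 12 chromosomes of the GRCm38 build, by GENCODE release M21, and all were protein coding. On chromosome 3, 12 of them sat in a 1.25 Mb stretch between bases 92080271 and 93333570, the epidermal differentiation complex. This stretch held Lor, Ivl, Sprr1a, Sprr1b, Crct1, Flg, Flg2, Hrnr and the 4 Lce1 genes. Lor itself spans bases 92080271 to 92083142 on the minus strand. A second group on chromosome 7 held Sbsn, Dmkn and Krtdap, in that order, from base 30751471 to base 30791097. Calml3, Calm4 and Calm5 lay together on chromosome 13 between bases 3802896 and 3854761. RefSeq promoter windows were at hand for 28 of the 33 genes. Of the 28, 9 genes held the TATA box motif TATAAA in the 250 bases before the start, or 32.1%, against 14.3% of 27025 genes. The 9 matches all read in the direction of the gene and began 27 to 53 bases before the start. The AP-1 motif TGANTCA was also in 9 of the 28, or 32.1%, against 7.82% of all genes. The C/EBP-type motif TTGCNNAA was in 8, or 28.6%, against 10.8%, and the Grainyhead-type motif AACNGGTT was in 0, against 2.0%. Both strands were searched. A match describes letters only.

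The promoters of 4 genes with different places in the epidermis are shown, for Lor, high in granular-like cells, for Krtdap, high from spinous-like cells onward, for Sprr1a, highest in infundibulum-like cells, and for Tgm3, highest in activated-like and basal-like cells. Capitals mark matches to the 4 motifs, which did not overlap in these windows. The windows are chr3:92083143-92083392 on the minus strand, chr7:30787655-30787904 on the plus strand, chr3:92485882-92486131 on the minus strand and chr2:130012090-130012339 on the plus strand, in the same order, each written 5′ to 3′ on the strand of the gene (RefSeq, GRCm38.p6).
Lor: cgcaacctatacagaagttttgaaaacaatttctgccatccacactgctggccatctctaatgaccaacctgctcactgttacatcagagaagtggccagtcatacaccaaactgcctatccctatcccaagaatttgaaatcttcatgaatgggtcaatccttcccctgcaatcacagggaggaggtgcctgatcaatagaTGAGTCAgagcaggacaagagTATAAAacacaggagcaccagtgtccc
Krtdap: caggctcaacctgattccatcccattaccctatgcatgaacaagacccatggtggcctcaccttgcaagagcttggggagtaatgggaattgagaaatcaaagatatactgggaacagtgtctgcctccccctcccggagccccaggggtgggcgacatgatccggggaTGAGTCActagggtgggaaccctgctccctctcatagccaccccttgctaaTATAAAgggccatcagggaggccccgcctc
Sprr1a: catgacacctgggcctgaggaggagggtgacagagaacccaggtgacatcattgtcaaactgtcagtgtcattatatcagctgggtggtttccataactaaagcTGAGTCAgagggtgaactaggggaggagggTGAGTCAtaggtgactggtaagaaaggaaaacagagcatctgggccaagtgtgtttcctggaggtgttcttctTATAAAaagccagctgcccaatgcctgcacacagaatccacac
Tgm3: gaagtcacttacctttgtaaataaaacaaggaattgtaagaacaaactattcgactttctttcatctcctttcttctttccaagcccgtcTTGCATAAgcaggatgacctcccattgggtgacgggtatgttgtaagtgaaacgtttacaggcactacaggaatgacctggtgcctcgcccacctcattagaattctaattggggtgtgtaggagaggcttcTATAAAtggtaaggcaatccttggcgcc
TGAGTCA and TATAAA stand in the windows of Lor, Krtdap and Sprr1a, the first of them at 2 places in Sprr1a. In the window of Tgm3 TATAAA is joined by TTGCATAA, and TGANTCA has no match.

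Across the 5 states the genes as a group peaked in granular-like cells. Their share of all UMIs there was 14.7%, 11.2% and 8.92% in dpc16, dpp42 and NP. Spinous-like cells gave 2.18%, 2.99% and 3.19%, and infundibulum-like cells 1.11%, 1.57% and 1.11%. Basal-like cells gave 0.313%, 0.387% and 0.423% and activated-like cells 0.375%, 0.211% and 0.354%, all above the fibroblast-like level. Summed over the genes, granular-like over spinous-like cells gave a log2 ratio of 2.05 as the mean of the 3 libraries, with an SD of 0.65. Single granular-like cells ran between 4.19% and 35.2% in dpc16, 4.29% and 29.1% in dpp42 and 3.97% and 23.1% in NP. The lowest granular-like cells thus overlapped the highest spinous-like cells, which reached 5.71%, 9.07% and 8.21% in dpc16, dpp42 and NP. Because clusters were drawn from related genes of the same cells, the state levels are a description.

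**Figure D1:**
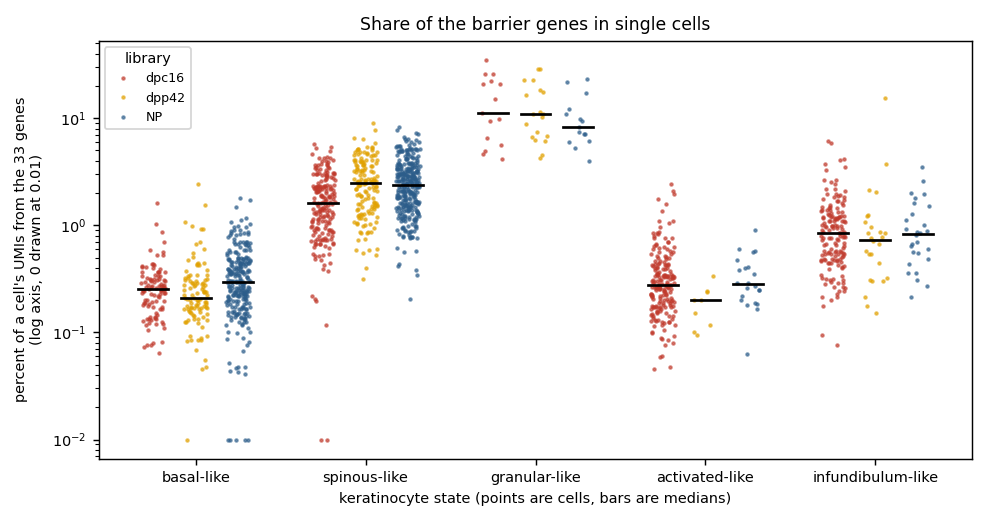
Percent of each cell's UMIs that came from the 33 genes (log axis, 0 drawn at 0.01) in the 5 keratinocyte states, with 1 point per cell, libraries in the order dpc16, dpp42 and NP, and black bars at the medians. Granular-like medians of 11.1%, 11% and 8.30% stand above spinous-like medians of 1.61%, 2.48% and 2.41%, and a single dpp42 infundibulum-like cell stands apart at 15.4%.

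By the mean over the libraries, 26 of the 33 genes were highest in granular-like cells. Of the 31 that reached 10 CPM, 25 were, against 20.9% of all 8973 genes at 10 CPM or more. Another 2 were highest in spinous-like cells (Sprr1b and Calm5), against 6.63% of all genes, and 2 in activated-like cells (Tgm3 and Lypd3), against 24.0%. A further 3 were highest in infundibulum-like cells (Sprr1a, Calml3 and Lce1c, of which 2 reached 10 CPM), against 23.0%, and 0 in basal-like cells, against 25.4%. The same state was highest in all 3 libraries for 24 of the 33. Among the genes highest in granular-like cells, 13 stood there at 10 or more times their spinous-like mean, which held for 1.32% of all genes. These 13 were Lor, Flg, Flg2, Hrnr, Cnfn, Crct1, Lce1a1, Lce1b, Lce1m, Tgm1, Cdsn, Alox12b and Wfdc21. The remaining granular-highest genes ranged from 9.62 times the spinous-like mean for Asprv1 to 1.47 times for Elovl4.

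**Figure D2:**
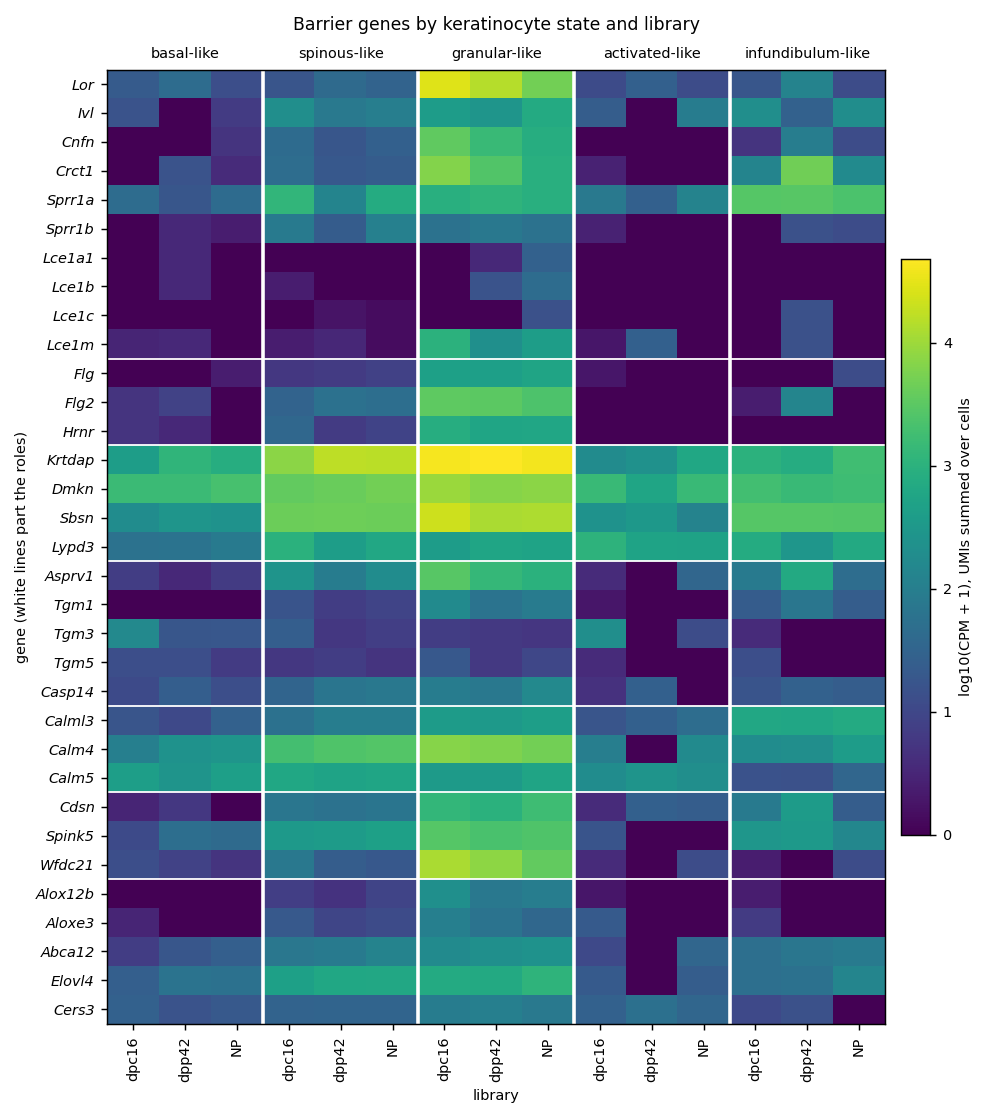
Level of each gene in each state and library, as log10(CPM + 1) of UMIs summed over cells, with libraries in the order dpc16, dpp42 and NP within a state. Lor, Wfdc21 and Flg2 are bright in granular-like cells alone, Krtdap, Sbsn, Dmkn and Calm4 are bright in spinous-like cells too, and Tgm3 is brightest in the dpc16 basal-like and activated-like cells.

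Lor, the glycine-rich main component of the cornified envelope, was nearly confined to granular-like cells among these states. Its level there was 28929.7 CPM in dpc16 (95% counting interval 28352 to 29516), 14346 CPM in dpp42 (13982 to 14718) and 4905 CPM in NP (4619 to 5205). Granular-like cells held 98.9%, 97.8% and 92.2% of all Lor UMIs of keratinocyte-like cells. Such intervals, here and below, cover counting error only.

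The filaggrin family, which aggregates keratin filaments, followed the same place. Flg, filaggrin itself, was at 461, 434 and 551 CPM in the granular-like cells of dpc16, dpp42 and NP and at 4.64, 5.40 and 6.90 CPM in spinous-like cells. Flg2 was at 3254, 3173 and 2392 CPM and Hrnr, hornerin, at 813, 563 and 596 CPM in granular-like cells. For Hrnr the spinous-like level was 36.2 CPM in dpc16 but 5.40 and 7.82 CPM in dpp42 and NP.

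Other late genes were also higher in granular-like than in spinous-like cells. Wfdc21, a small secreted protein with a whey acidic protein domain, was at 12527, 7735 and 3615 CPM in granular-like cells of dpc16, dpp42 and NP, and its spinous-like mean was 203 times lower. Crct1, a cysteine-rich gene of the chromosome 3 complex, was at 6477, 2531 and 883 CPM, and Cnfn, cornifelin, an envelope component, at 3418, 1502 and 838 CPM. Cdsn, corneodesmosin, was at 1283, 973 and 1671 CPM in granular-like cells and at 68.2, 56.3 and 65.8 CPM in spinous-like cells. Tgm1, the membrane-bound transglutaminase that cross-links the envelope, was at 173, 61.0 and 89.6 CPM in granular-like cells and at 22.2, 67.4 and 22.7 CPM in infundibulum-like cells. In dpp42 Tgm1 and Crct1 were thus highest in infundibulum-like cells by CPM. For Tgm1 this rests on 5 UMIs, against 25 in granular-like cells, too few to rank these states. For Crct1 it rests mostly on a single cell, as given below. Alox12b, the lipoxygenase that oxidises acylceramides so that they can be joined to the envelope, was at 212, 75.6 and 94.1 CPM.

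A second group was already abundant in spinous-like cells. Krtdap, a small secreted protein of differentiating keratinocytes, was at 42066, 48238 and 40046 CPM in granular-like cells of dpc16, dpp42 and NP, and at 7312, 16243 and 15895 CPM in spinous-like cells. The step of granular-like over spinous-like cells was 3.30-fold as a mean, and the step of spinous-like over basal-like cells was 16.4-fold. Sbsn, suprabasin, went the same way, with 20812, 12337 and 12562 CPM in granular-like cells and 4271, 4381 and 4293 CPM in spinous-like cells. Dmkn, dermokine, was the member with the flattest profile of the secreted group. It was at 1578, 1526 and 2091 CPM in basal-like, 3561, 4088 and 4948 CPM in spinous-like and 9340, 6748 and 7284 CPM in granular-like cells.

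The calmodulin-like genes differed among themselves. Calm4, a calcium-binding protein of differentiating epidermis, was at 6719.9, 5987 and 4928 CPM in granular-like and 1934, 2444 and 2694 CPM in spinous-like cells of dpc16, dpp42 and NP. Calm5, its neighbour on chromosome 13, was at 419.9, 269 and 431 CPM in basal-like, 612, 520.4 and 570 CPM in spinous-like and 361, 354 and 547 CPM in granular-like cells. Spinous-like over basal-like cells thus gave 1.52-fold for Calm5 and 11.2-fold for Calm4. Calml3 was highest in infundibulum-like cells, at 652, 593 and 737 CPM, against 364, 334 and 421 CPM in granular-like cells.

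Among the lipid genes, Elovl4 and Abca12 were already higher in spinous-like than in basal-like cells. Elovl4, which makes the very long fatty acids of acylceramides, was at 467, 621 and 651 CPM in spinous-like and 24.8, 60.6 and 55.4 CPM in basal-like cells of dpc16, dpp42 and NP. Granular-like cells held 734, 685 and 1133 CPM. Abca12, the lipid transporter of lamellar granules, was at 169.8, 215 and 246 CPM in granular-like and 71.0, 83.3 and 122 CPM in spinous-like cells. Cers3, the ceramide synthase of ultra-long fatty acids, ran between 76.2 and 105 CPM in granular-like cells of the libraries and between 14.6 and 31.7 CPM over basal-like and spinous-like cells. Asprv1, the protease that processes filaggrin, was at 2981, 1307 and 995 CPM in granular-like and 269, 90.2 and 189.6 CPM in spinous-like cells. Spink5, the serine protease inhibitor mentioned above, was at 2789.9, 2165 and 2459 CPM in granular-like and 348, 372 and 450.4 CPM in spinous-like cells.

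The small proline-rich gene Sprr1a, whose product bridges envelope proteins, was highest in infundibulum-like cells in the clusters used here, and in granular-like cells when each cell was given a state from its own markers. Infundibulum-like cells, named by markers after the funnel of the hair follicle, held 2866, 2897 and 2244 CPM in dpc16, dpp42 and NP. Granular-like cells held 909.7, 1117 and 887 CPM and spinous-like cells 1197, 131 and 748 CPM. In dpp42 1 infundibulum-like cell of 26 held 41.6% of the state's UMIs from the 33 genes, and without it their share was 0.961% in place of 1.57%. The dpp42 infundibulum-like level of Crct1 was 4675 CPM with all cells and 507 CPM without the cell richest in it. Ivl, involucrin, an early envelope scaffold, was less restricted than Lor, at 208, 26.9 and 193 CPM in infundibulum-like, 202, 78.6 and 98.5 CPM in spinous-like and 379, 278 and 730.2 CPM in granular-like cells.

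Tgm3 and Lypd3 were the exceptions at the other end, singled out after their values were seen. Tgm3, a transglutaminase known from hair and epidermis, was at 157, 17 and 18 CPM in basal-like and 206, 0 and 11.4 CPM in activated-like cells of dpc16, dpp42 and NP. The 0 of the 9 dpp42 activated-like cells allows up to 78.1 CPM at this depth. Granular-like cells held no more than 6.06 CPM of it in any library. Its highest state was basal-like, not activated-like, under 4 of the 8 alternatives run. Lypd3, a GPI-anchored adhesion protein of stratified epithelia, was at 1064, 521 and 489 CPM in activated-like, 961, 407 and 633 CPM in spinous-like and 57.9, 60.6 and 81.7 CPM in basal-like cells. Granular-like cells held 388, 568 and 529 CPM of it and infundibulum-like cells 759, 283 and 703 CPM, so activated-like cells were highest in dpc16 only. The activated-like cells, marked by Fosl1, Krt16 and Serpinb2, were 190 of 221 from dpc16.

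The 4 Lce1 genes and the other weak genes limit what can be said. Over the 5 states and 3 libraries Lce1a1, Lce1b and Lce1c gave 8, 20 and 6 UMIs. Lce1c had no UMI in the keratinocyte-like cells of dpc16, which allows up to 0.369 CPM. Lce1m was at 1007, 209.7 and 412 CPM in granular-like cells of dpc16, dpp42 and NP. Only 6 of 15, 8 of 19 and 3 of 15 of these cells held a UMI of it, so a few cells carried its level. The Lce and Sprr genes have close relatives in the genome, and how reads shared between copies were counted is not given in the sources used here.

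Next, libraries were compared over all keratinocyte-like cells. The 33 genes took 1.56% of their UMIs in dpc16, 2.73% in dpp42 and 2.27% in NP. Summed, dpc16 over NP gave a ratio of 0.686 (0.680 to 0.692), dpp42 over NP 1.20 (1.19 to 1.21) and dpp42 over dpc16 1.75 (1.74 to 1.77). The mix of states differed with the libraries: spinous-like cells were 13.1%, 23.8% and 34.0% and granular-like cells 1.03%, 3.05% and 1.65% of the keratinocyte-like cells of dpc16, dpp42 and NP. With the 5 states weighted equally in every library, the log2 ratio of dpc16 over NP turned to 0.42 in place of -0.54, and that of dpp42 over dpc16 to -0.19 in place of 0.81. The direction of the summed level for those pairs thus depends on how the states are weighted. Granular-like cells, where the 33 genes took the largest share of UMIs, counted most under equal weights and numbered 15, 19 and 15. For dpc16 over NP the summed ratio was 1.65 in granular-like, 0.740 in basal-like, 0.684 in spinous-like, 1.06 in activated-like and 1.00 in infundibulum-like cells. In the same order dpp42 over dpc16 gave 0.764, 1.24, 1.37, 0.562 and 1.42. Fibroblast markers, all 7 detected, summed to 824, 192 and 128 CPM in the keratinocyte-like cells of dpc16, dpp42 and NP, and their part in the result was not tested.

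A gene was called where its CPM differed by 1.5-fold or more and the 95% counting interval of the ratio left out 1. Only genes reaching 10 CPM in 1 library and 20 UMIs over both could be called. In dpc16 over NP 30 of the genes could be measured, of which 9 were higher and 8 lower. The background over 7900 measured genes was 9.52% higher and 21.8% lower, so the lower share of the members was near it and the higher share above it. The higher genes were Lor, Cnfn, Crct1, Lce1m, Tgm3, Tgm5, Lypd3, Aloxe3 and Wfdc21. Tgm5 stood at 25.7, 19.6 and 10.0 CPM in dpc16, dpp42 and NP, while fibroblast-like cells held 6.44, 17 and 7.03 CPM, so its pooled dpp42 and NP levels were close to those. In 1 keratinocyte-like cluster of 91, 87 and 68 cells it was at 265, 156 and 113 CPM, so its UMIs were concentrated in part of the cells. The lower genes were Flg, Krtdap, Sprr1b, Casp14, Calm4, Calm5, Abca12 and Elovl4. In dpp42 over NP 8 of 29 were higher and 2 lower, against 4.64% and 2.78% of 7953 genes. In dpp42 over dpc16 12 of 30 were higher and 4 lower, against 22.8% and 8.89% of 7975 genes. The median log2 ratio of the measured members was 0.19, 0.24 and 0.34 in the 3 comparisons, and that of all measured genes -0.18, 0.00 and 0.20. The comparisons share libraries and are not independent of each other.

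**Figure D3:**
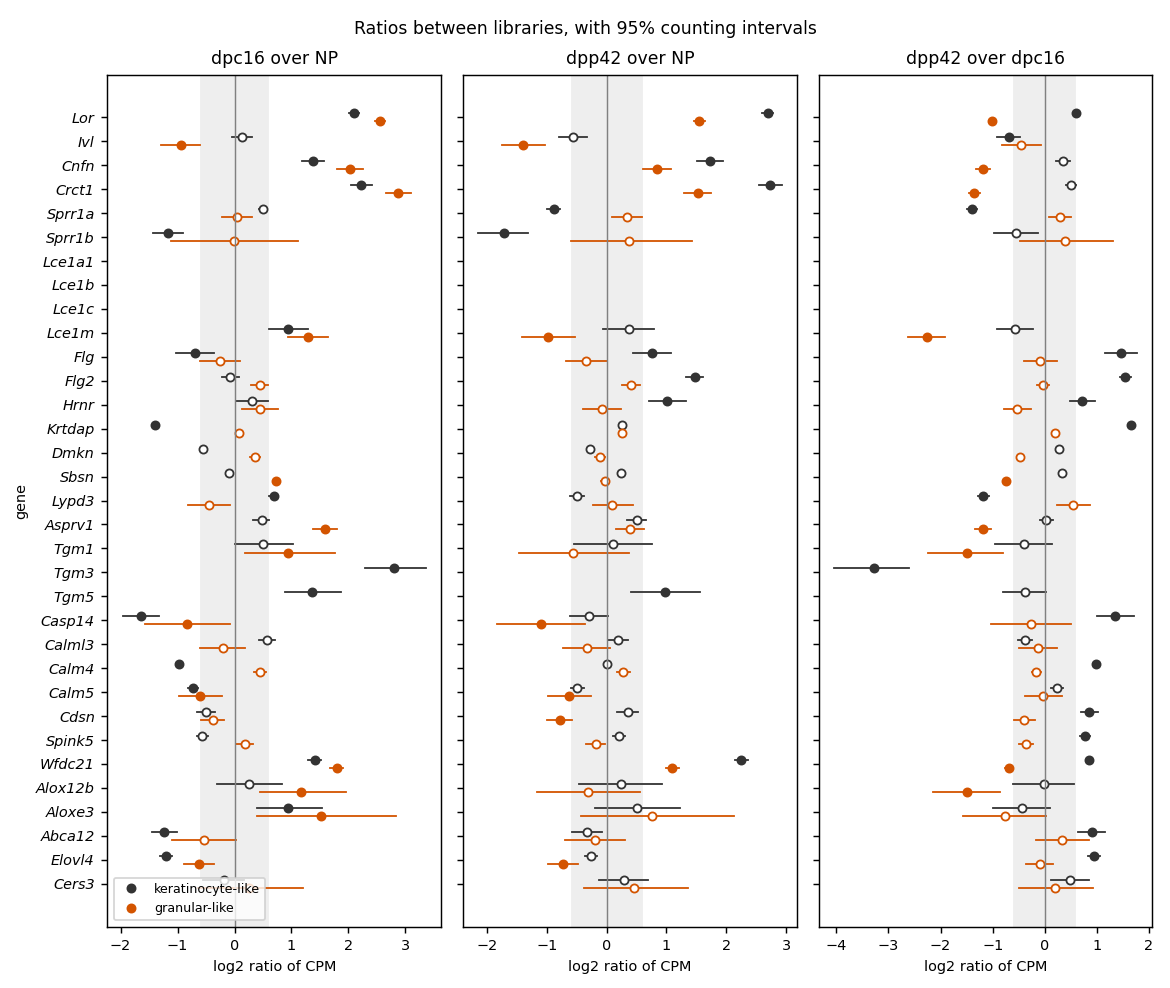
Log2 ratio of CPM for each gene in the 3 pairs of libraries (dpc16 over NP, then dpp42 over NP, then dpp42 over dpc16), over all keratinocyte-like cells (black) and over granular-like cells alone (orange), with 95% counting intervals; filled points met the rule, open points did not, and the grey band marks ratios under 1.5 either way. Genes without a point were not measured in that comparison. Lor, Crct1 and Wfdc21 lie to the right against NP in both sets of cells, while in dpp42 over dpc16 Lor is at 0.59 over all keratinocyte-like cells and at -1.01 over granular-like cells.

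Among the late structural genes Lor stood at 1188 CPM in dpc16, 1789.9 CPM in dpp42 and 276 CPM in NP, over all keratinocyte-like cells. The ratio over NP was 4.30 (4.05 to 4.57) for dpc16 and 6.48 (6.08 to 6.90) for dpp42. Both pregnancy-exposed libraries were thus above NP, and nearly all of these UMIs came from 15 to 19 granular-like cells per library. Crct1 was at 299.9, 426 and 64.0 CPM, Wfdc21 at 532, 957 and 201 CPM and Cnfn at 151, 193 and 58.2 CPM in dpc16, dpp42 and NP, each higher in both libraries than in NP. Flg2 was at 141, 413 and 149 CPM and so was higher in dpp42 than in either other library, by 2.92 (2.70 to 3.16) over dpc16 and 2.77 (2.52 to 3.05) over NP. Granular-like cells held 93.6%, 93.8% and 83.6% of its UMIs in dpc16, dpp42 and NP. Within those cells Flg2 did not meet the rule, with dpp42 at 0.975 over dpc16 and 1.33 over NP. Asprv1, at 210, 215 and 152 CPM, did not meet the rule in any comparison.

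Krtdap showed the opposite order for dpc16. It was at 3994 CPM in dpc16, 12495 CPM in dpp42 and 10505 CPM in NP. The ratio of dpc16 over NP was 0.380 (0.375 to 0.386) and that of dpp42 over dpc16 was 3.13 (3.08 to 3.17), while dpp42 and NP differed by 1.19-fold. Calm4 moved alike, at 881, 1741 and 1728 CPM, and so did Elovl4, at 179, 343 and 411 CPM. Spink5 was at 270.3, 463 and 399.6 CPM and Cdsn at 88.1, 159 and 125 CPM, both higher in dpp42 than in dpc16. Calm5 was at 251, 296 and 415 CPM, lower in dpc16 than in NP.

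Sprr1a was lower in dpp42 than in either other library, and Lypd3 lower in dpp42 than in dpc16. Sprr1a was at 735, 280 and 517 CPM in dpc16, dpp42 and NP, with a dpp42 over dpc16 ratio of 0.381 (0.355 to 0.408). Lypd3 was at 679, 301 and 423 CPM, with a ratio of 1.61 (1.52 to 1.69) for dpc16 over NP. Ivl was at 106, 65.8 and 97.1 CPM, lower in dpp42 than in dpc16. Sbsn, at 2866, 3613 and 3057 CPM, Dmkn, at 2469, 2995 and 3630.1 CPM, and Calml3, at 217, 167 and 146 CPM, met the rule in no comparison.

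The other 15 genes stayed under 100 CPM in keratinocyte-like cells of every library, between 0 CPM for Lce1c in dpc16 and 84.1 CPM for Abca12 in NP. Tgm3 was chosen from them after its values were seen. It was at 52.0 CPM in dpc16, 5.36 CPM in dpp42 and 7.45 CPM in NP, a ratio of 6.98 for dpc16 over NP. Of its 422 dpc16 UMIs, 228 lay in the activated-like cells and 75 in basal subcluster 17. In spinous-like cells it was also highest in dpc16, at 23.7 CPM, against 4.63 and 6.44 CPM in dpp42 and NP. Casp14, the protease that finishes filaggrin breakdown, was at 16, 40.8 and 49.8 CPM in dpc16, dpp42 and NP, lower in dpc16.

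Within granular-like cells the pattern of the late genes was different between dpc16 and dpp42. With the first clustering at resolution 2, granular-like cells would number 48, 58 and 82 in dpc16, dpp42 and NP. Ratios within granular-like cells are given for the reported, smaller sets only. There dpc16 over NP gave 10 genes higher and 4 lower of 28 measured, against 7.14% and 15.8% of 3055 genes. The higher genes were Lor, Cnfn, Asprv1, Crct1, Lce1m, Tgm1, Sbsn, Alox12b, Aloxe3 and Wfdc21. In dpp42 over NP 4 were higher and 6 lower, against 3.33% and 6.86% of 3603 genes, and in dpp42 over dpc16 0 were higher and 9 lower, against 13.6% and 7.58% of 3748 genes. Lor gave 5.90 (5.54 to 6.28) for dpc16 over NP and 0.496 (0.480 to 0.512) for dpp42 over dpc16. Krtdap, by contrast, was within 1.20-fold in all 3 pairs in these cells. Ivl was lower than in NP in both, with 0.519 for dpc16 and 0.381 for dpp42.

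The spread between single granular-like cells was wide. Lor ran from 0 to 1423 UMIs per 10000 in dpc16 with a median of 131, from 0.956 to 692 in dpp42 with a median of 110, and from 0 to 705 in NP with a median of 11.5. The cells of the libraries overlapped over most of this range. Cells with Lor at 1% or more of their UMIs were 8 of 15 in dpc16, 10 of 19 in dpp42 and 4 of 15 in NP. Such cells were thus a smaller part of these few cells in NP than in dpc16 or dpp42, which were alike in this. Between dpc16 and dpp42 the highest single cells, at 1423 and 692, lay further apart than the medians. Whether stage or sampling set these values was not tested. Median UMIs were 20532, 20919 and 14501 and summed spinous markers, all 7 detected, 31983, 39567 and 55864 CPM in the granular-like cells of dpc16, dpp42 and NP. Fibroblast markers there, 4 to 6 of 7 detected and Pdgfra at 0 in all 3 libraries, summed to 258, 75.6 and 53.8 CPM. Their part in the result was not tested.

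**Figure D4:**
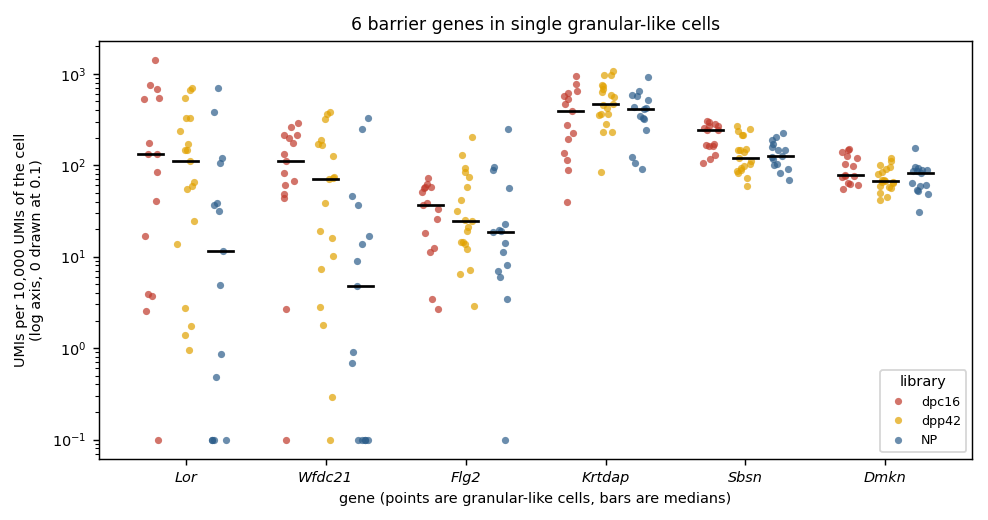
UMIs per 10000 UMIs of a cell (log axis, 0 drawn at 0.1) for 6 genes in single granular-like cells, 15 from dpc16, 19 from dpp42 and 15 from NP, with black bars at the medians. Lor and Wfdc21 spread over several powers of 10 and have their lowest medians in NP, 11.5 and 4.83, whereas Krtdap, Sbsn and Dmkn vary less between cells.

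Spinous-like cells were compared next, since they held 37.1%, 42.3% and 71.0% of the keratinocyte-like UMIs of the 33 genes in dpc16, dpp42 and NP. Here dpc16 over NP gave 10 higher and 6 lower of 26 measured, against 5.33% and 25.7% of 7292 genes. Sprr1a, Ivl, Hrnr and Lypd3 were among the higher genes and Krtdap, Casp14 and Abca12 among the lower. In dpp42 over NP 0 were higher and 4 lower of 23, against 2.11% and 4.86% of 7456 genes. The lower genes were Asprv1, Sprr1a, Sprr1b and Lypd3. In dpp42 over dpc16 5 were higher and 12 lower of 26, against 21.4% and 7.32% of 7340 genes. Sprr1a gave the largest of these, 1197 CPM in dpc16, 131 CPM in dpp42 and 748 CPM in NP, with dpp42 over dpc16 at 0.109 (0.0932 to 0.128). Lor was among the lower genes in dpc16 over NP and among the higher genes in dpp42 over dpc16. Its dpc16 and dpp42 levels in spinous-like cells are read as background above.

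The spinous subclusters with cells of every library were also taken 1 at a time. In subcluster 6, led by Krt77 and Krt10, with 72, 81 and 138 cells of dpc16, dpp42 and NP, the 33 genes took 2.87%, 3.30% and 3.69% of UMIs. In subcluster 7, with 118, 27 and 94 cells, they took 1.22%, 1.82% and 1.91%. Krtdap was lower in dpc16 than in NP in both, and Sprr1a was lower in dpp42 than in NP in both. Sprr1a and Asprv1 in dpc16 over NP were higher in subcluster 6 and lower in subcluster 7. The direction of Sprr1a in the pooled spinous-like cells is thus not shared by its parts. All genes higher in dpc16 than in NP in the pooled cells were also higher in subcluster 6. Of them only Tgm3 was higher in subcluster 7, where 17 of the 33 genes could be measured, against 27 in subcluster 6. Median UMIs in subcluster 6 were 17837 in dpc16, 10410 in dpp42 and 8697 in NP, and the part of depth in these values was not tested.

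In the other 3 states fewer genes could be measured. In basal-like cells dpc16 over NP gave 1 higher (Tgm3) and 5 lower (Krtdap, Calm4, Spink5, Abca12 and Elovl4) of 13, against 7.68% and 13.3% of all genes, with the dpc16 cells mostly from subcluster 17. There dpp42 over NP gave 1 higher (Lor) and 2 lower of 14, against 2.80% and 3.10%, and dpp42 over dpc16 gave 4 higher and 3 lower of 11, against 13.4% and 8.50%. The Lor levels behind its call in dpp42 over NP, 43.7 and 12.5 CPM in dpp42 and NP, lay below the fibroblast-like 58.0 and 17.6 CPM and are read as background. Spink5 was 1 of the 4 higher genes in dpp42 over dpc16. Its basal-like dpp42 level of 48.5 CPM also lay below the fibroblast-like 81.8 CPM and is read in the same way. In activated-like cells dpc16 over NP gave 3 higher (Tgm3, Sbsn and Lypd3) and 2 lower (Ivl and Krtdap) of 13, against 2.99% and 7.01%. The NP level of Ivl in activated-like cells rests on 8 UMIs in 2 of 22 cells. With 9 dpp42 cells, dpp42 over NP gave 1 higher and 2 lower of 5, against 5.46% and 4.82%, and dpp42 over dpc16 gave 0 higher and 4 lower of 12, against 5.53% and 1.82%. In infundibulum-like cells dpc16 over NP gave 1 higher (Spink5) and 3 lower (Krtdap, Calm4 and Elovl4) of 14, against 3.09% and 9.31%. Krtdap was at 403 and 818 CPM in basal-like and at 1009 and 1734 CPM in infundibulum-like cells of dpc16 and NP. Its fibroblast-like level, 36.9 CPM in dpc16 and 327 CPM in NP, was not subtracted from these values, and its part in those 2 calls was not tested. In infundibulum-like cells dpp42 over NP gave 4 higher (Asprv1, Crct1, Cdsn and Spink5) and 3 lower of 11, against 4.79% and 8.77%. There dpp42 over dpc16 gave 4 higher (Lor, Asprv1, Crct1 and Cdsn) and 2 lower of 16, against 9.56% and 5.82%. For Asprv1, Crct1 and Cdsn most of the dpp42 UMIs came from 1 cell each, and Lor had 9 dpp42 UMIs, so these calls do not describe the state as a whole.

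The share of cells with a UMI gave a coarser picture. Lor was found in 7.43% of dpc16, 21.4% of dpp42 and 7.46% of NP keratinocyte-like cells, against 4.71%, 15.2% and 4.90% of fibroblast-like cells. With every cell thinned to 1000 UMIs the shares were 2.06%, 8.68% and 2.09% in keratinocyte-like and 1.60%, 4.46% and 1.96% in fibroblast-like cells, so in dpc16 and NP they lay near the background. Krtdap was found in 33.2%, 66.1% and 69.8% of keratinocyte-like cells, and after thinning in 21.9%, 45.0% and 51.9%, against 2.49%, 22.3% and 17.6% of thinned fibroblast-like cells. Sbsn was found in 75.1%, 68.3% and 61.9%, and after thinning in 48.9%, 50.5% and 45.4%, against 8.62%, 5.36% and 12.7% of thinned fibroblast-like cells. Median depths were 3953, 3149 and 2994 UMIs in keratinocyte-like and 4043, 2420 and 2631.5 UMIs in fibroblast-like cells of dpc16, dpp42 and NP. Every barcode held at least 1908 UMIs, so thinning left out no cell.

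Finally, 87 further barrier genes were followed, of which 85 were in the gene table. In keratinocyte-like cells dpc16 over NP gave 9 higher and 15 lower of 39 measured, against 9.52% and 21.8% of all genes. In dpp42 over NP 12 were higher and 0 lower of 43, against 4.64% and 2.78%. In dpp42 over dpc16 19 were higher and 4 lower of 43, against 22.8% and 8.89%. The corneodesmosome genes Dsg1a, Dsg1b and Dsc1, cadherins of the upper layers, were 3 of 5 lower in dpc16 than in NP, where 21.8% of all genes were lower, and 3 of 5 higher in dpp42 than in dpc16, where 22.8% were higher. Dsg1a was at 355 CPM in dpc16, 754 CPM in dpp42 and 833 CPM in NP. Acer1, an alkaline ceramidase of differentiated epidermis, was at 64.8, 115 and 141 CPM. Klk7, a protease that cuts corneodesmosomes, was higher in both libraries than in NP, at 176 CPM in dpc16 and 238 CPM in dpp42 against 85.7 CPM in NP. Klk5 and Klk8, proteases of the same family, were lower in dpc16, at 72.3 and 56.0 CPM, against 139 and 103 CPM in NP. Cst6, cystatin M/E, an inhibitor that controls transglutaminase processing and also a marker of the infundibulum, was at 5211, 2089 and 1035 CPM. Infundibulum-like cells, named in part by Cst6, were 10.5%, 4.18% and 3.07% of the keratinocyte-like cells of dpc16, dpp42 and NP. The part of that mix in the Cst6 levels was not tested. Ctsl, the lysosomal protease that Cst6 can inhibit, was at 114, 114 and 64.7 CPM. Degs1, a ceramide desaturase, was at 112, 69.6 and 66.8 CPM, and Elovl1, a fatty acid elongase, at 219 CPM in dpp42 against 137 CPM in NP. Of the 17 other late cornified envelope genes no more than 1, and none of the 13 other small proline-rich genes present, could be measured in any of these comparisons.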

How the data were processed

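Single-cell libraries were made with 10x Chromium v2 3′ chemistry, per the labels' protocols, and processed with Cell Ranger 2.2.0 against mm10/GRCm38, per the submitters' processing notes; no source used here gives the annotation release. The deposited files hold UMI counts, not normalized, for 28693 gene rows in 6648 barcodes, and rows sharing a symbol were summed. Cells with at least 200 genes and at most 10% mitochondrial UMIs were kept, 6022 in all. Cells were clustered without the 33 genes in scanpy 1.11.5 (2000 variable genes, 30 components, 15 neighbours, resolution 1, seed 0), and keratinocyte-like cells again in the same way. Counts summed over cells were scaled to 1000000 UMIs (CPM), with exact Poisson 95% intervals; ratios have exact conditional binomial and shares Clopper-Pearson intervals. Intervals and limits for counts of 0 (3 counts) cover counting error only. Log2 ratios added 0.5 UMI. The calling was tested on simulated data. Genes of at least 100 CPM in keratinocyte-like cells of 1 library were named with every value, the others by range. From the other barrier genes up to 4 each way per comparison were named, by size among called genes of at least 100 CPM. The 33 genes and the lists were chosen with earlier results of these data known. Alternatives covered cell filters, clustering, scaling, thinning, subtraction of fibroblast-like levels, weighting of states and the size rule.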

Additional observations from a re-analysis of the deposited data

Results flagged for a closer look

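Several genes were higher in 1 state and lower in another in the same pair of libraries. These opposite directions were not tested, since each library stands alone, and values are log2 ratios. In dpc16 over NP Lor was at 2.56 in granular-like and -0.89 in spinous-like cells, a gap of 3.45, with the spinous-like levels near those of fibroblast-like cells. Ivl was at 1.04 in spinous-like cells, -0.94 in granular-like and -2.02 in activated-like cells, gaps of 1.98 and 3.06. Its activated-like level in NP rests on 8 UMIs in 2 of 22 cells. Spink5 was at 0.90 in infundibulum-like and -1.84 in basal-like cells, a gap of 2.74, with 5 dpc16 UMIs in basal-like cells, where basal-like dpc16 cells came mostly from subcluster 17.

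In dpp42 over NP Asprv1 was at 3.77 in infundibulum-like and -1.07 in spinous-like cells, a gap of 4.84. Cdsn was at 3.71 in infundibulum-like and -0.78 in granular-like cells, a gap of 4.49. In dpp42 infundibulum-like cells 49 of 51 Asprv1 UMIs and 14 of 27 Cdsn UMIs came from 1 cell each.

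In dpp42 over dpc16 Lor was at 1.30 in spinous-like, 2.88 in infundibulum-like and -1.01 in granular-like cells, gaps to the last of 2.31 and 3.89. The spinous-like levels of 40.1 and 16.2 CPM in dpp42 and dpc16 lay below the fibroblast-like 58.0 and 45.5 CPM, as did the infundibulum-like 16.7 CPM in dpc16, and the dpp42 infundibulum-like level rests on 9 UMIs, so opposite directions are not shown for Lor here. Asprv1 was at 3.07 in infundibulum-like, -1.57 in spinous-like and -1.19 in granular-like cells, gaps of 4.64 and 4.26. Crct1 was at 5.17 in infundibulum-like, -1.29 in spinous-like and -1.36 in granular-like cells, gaps of 6.46 and 6.53, and 1 dpp42 cell gave 311 of its 347 infundibulum-like UMIs. Calm4 was at 1.19 in basal-like cells. In activated-like cells it had 0 UMIs in the 9 dpp42 cells and 112 UMIs in dpc16, which with the limit of 3 counts is at least 1.30-fold lower in dpp42. The gap of 4.15 takes the 0 as 0.5 UMI and so is set by that added value.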

How the results depend on the processing

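No paired analysis was possible because each group is 1 library; for the same reason no replicate could be left out. The granular-over-spinous ratio kept its direction, and 24 to 28 genes were highest in granular-like cells (26 as reported) under the 8 alternatives run. The highest state was the same under all 8 for 27 of the 33 genes and moved for Sprr1a, Sprr1b, Lce1a1, Lce1c, Tgm3 and Tgm5, while the number of granular-like cells with at most 5% mitochondrial UMIs was 7, 7 and 1 for dpc16, dpp42 and NP. The summed level in keratinocyte-like cells moved. For dpc16 over NP (log2 -0.54) it was -0.34 with at most 5% mitochondrial UMIs, -0.57 with no mitochondrial limit, -0.67 as the mean of cells, -0.69 thinned, -0.53 with fibroblast-like levels subtracted, -0.37 against the median of all genes and 0.42 with the 5 states weighted equally. For dpp42 over NP (0.26) it was 0.46, 0.25, 0.01 as the mean of cells, 0.01 thinned and 0.23 with states weighted equally. For dpp42 over dpc16 (0.81) it was 0.68 as the mean of cells, 0.70 thinned, 0.61 against the median and -0.19 with states weighted equally. A 2-fold rule left 5 lower genes of 8 in dpc16 over NP, 1 of 2 in dpp42 over NP, and 4 higher of 12 in dpp42 over dpc16, by its construction. Weighting states equally, where calls used the ratio alone, gave 3 lower in dpc16 over NP, 5 higher in dpp42 over NP, and 0 higher and 12 lower in dpp42 over dpc16. Subtraction gave 4 lower in dpp42 over NP, and the median scaling 8 lower in dpp42 over dpc16. Signs turned for Lce1m in dpc16 over NP when thinned (-0.25) and for Tgm5 in dpp42 over NP after subtraction (-0.15). With states weighted equally they turned for Calm4 in dpc16 over NP (0.10), for Flg (-0.38), Hrnr (-0.08) and Sprr1a (0.05) in dpp42 over NP, and for dpp42 over dpc16 in Lor (-0.99), Flg (-0.09), Hrnr (-0.58), Calm4 (-0.03), Cdsn (-0.01), Spink5 (-0.24) and Wfdc21 (-0.70). Thinning moved the share of keratinocyte-like cells of dpc16, dpp42 and NP with a UMI to 2.06%, 8.68% and 2.09% for Lor, 21.9%, 45.0% and 51.9% for Krtdap and 48.9%, 50.5% and 45.4% for Sbsn. Apart from the 2-fold rule, the cause was not tested. Over the 43 ratios called in all keratinocyte-like cells and 430 alternative values, 369 held their call, 48 lost it and 13 turned sign. Calls within single states are not part of this count.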

Other observations

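Some of the 33 genes were also abundant outside the 5 states. Elovl4, the fatty acid elongase, was at 1491, 4967 and 4461 CPM in the sebocyte-like cells of dpc16, dpp42 and NP, above its granular-like 734, 685 and 1133 CPM. In dpc16 65 of 315 sebocyte-like cells, or 20.6%, held a UMI of it. It was the leading gene of a sebocyte-like cluster of 58 cells over the libraries, so its level belongs to part of these cells. Calml3 was at 894, 481 and 681 CPM in a keratinocyte-like cluster of 91, 87 and 68 cells of dpc16, dpp42 and NP, and Tgm5 was at 265, 156 and 113 CPM in the same cluster, above its 10.7 CPM mean in granular-like cells.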
